A study of Homo sapiens with 9 samples.

Results

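Transcript levels were compared between cells transfected with the siRNA siWFDC21P-1 and cells transfected with a control siRNA (siNC), separately in the 2 cell backgrounds that these libraries hold. The comparison uses 5 of the 9 RNA sequencing libraries of the series, chosen by their titles: siNC replicates 1 and 2 and siWFDC21P-1 replicates 1, 2 and 3. All are labelled as wild-type BT549, an established human line from a triple-negative breast tumour, known for its mesenchymal features. Every well received 5 µl of a 10 µM siRNA stock, cells were harvested after 48 h, and each library was made from 1 µg of RNA. The other 4 libraries are siNC replicate 3 and siWFDC21P-2 replicates 1, 2 and 3. Within background 1, siWFDC21P-1 replicates 1 and 2 were compared with siNC replicate 1. Within background 2, siWFDC21P-1 replicate 3 was compared with siNC replicate 2. Each background therefore has 1 control library, which replicates 1 and 2 share, and background 2 has 1 library on each side and no replicate check. The labels do not say whether the libraries come from separate cultures, so p-values measure the spread between these samples, which may be technical.

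A small interfering RNA guides the silencing complex to transcripts with a matching sequence, which are then cut, and through its seed it can also lower other transcripts with partial matches. WFDC21P is a transcribed pseudogene whose RNA is also known as lnc-DC, a long non-coding RNA described in dendritic cells as a partner of the transcription factor STAT3. Genes that move the same way in 2 unlike backgrounds and genes that move in 1 of them are described apart here.

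The label check comes first, because the backgrounds differ. The mesenchymal filament gene VIM had 40.4 FPKM (fragments counted per transcript length and library size) in siNC replicate 1, with 41.0 and 38.5 in siWFDC21P-1 replicates 1 and 2, against 0.699 in siNC replicate 2 and 0.517 in siWFDC21P-1 replicate 3. The epithelial adhesion gene EPCAM was at 0, 0.0412 and 0 FPKM in the 3 libraries of background 1 and at 209 and 228 in those of background 2. KRT19, an epithelial keratin, was at most 0.0721 in background 1 and at 925 and 474 in background 2. CDH2, which encodes N-cadherin and marks mesenchymal cells, was at 0 to 0.00698 in all 5. The 2 libraries of background 2 therefore went against the mesenchymal-like label for VIM, EPCAM and KRT19. The libraries of background 1 were nearer to it than those of background 2 for VIM and ZEB1, but not for CDH2. In siNC replicate 3, outside this comparison, VIM was at 310 FPKM, and ZEB1 was at 33.1 against 5.15 in siNC replicate 1. The epithelial keratins KRT8 and KRT18 were at 232 and 151 in siNC replicate 1 and at 4.32 and 2.1 in siNC replicate 3. AXL was at 6.53 to 23.5 FPKM in background 1 and at most 0.096 in background 2. SPARC was at 3.57, 0.508 and 0.293 in background 1 and at 0.636 and 0.191 in background 2, with 25.7 in siNC replicate 3. FN1 was higher in background 2 (11.2 and 5.91, with 1.45 to 3.71 in background 1), as was CAV1 (82.3 and 44.9, with 17.2 to 32.5). Summed over 14 mesenchymal markers, siNC replicates 1 and 2 were nearly level, at 149 and 147 FPKM, with 10 and 5 markers reaching 1 FPKM. Log2(FPKM + 1) correlated at 0.944 to 0.968 across genes within background 1, at 0.961 within background 2, and at 0.662 to 0.699 between them. Summed fibroblast markers were at 24.9 to 27.7 FPKM in background 1 and at 2.04 to 2.79 in background 2, and endothelial markers at 10.8 to 17.7 and 30.7 to 33.5. The 7 of 10 leukocyte markers present were at 1.14 to 4.30 and 30.4 to 36.4. In each library of background 2 only 1 leukocyte marker reached 1 FPKM, so that sum rests mainly on 1 gene. In bulk RNA, fewer cells of a type and less RNA per cell cannot be told apart. The libraries were alike in depth, at 28.1 to 29.7 M reads. Mitochondrially encoded genes held 17.6% of all FPKM in siWFDC21P-1 replicate 2 and 21.1 to 24.0% in the other 4 libraries.

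The targeted transcript was measured next. WFDC21P (ENSG00000261040, chromosome 17, 60083566 to 60091885, minus strand, hg38) had 3.08 FPKM in siNC replicate 1, with 0.0629 and 0.767 in siWFDC21P-1 replicates 1 and 2, from 99, 2 and 25 reads. The knockdown libraries of background 1 thus held 2.04% (95% interval 0.244 to 7.58) and 24.9% (15.4 to 38.9) of the control level, by exact intervals that cover counting error only. In background 2 it had 0.129 FPKM in siNC replicate 2 and 0.227 in siWFDC21P-1 replicate 3, from 4 and 7 reads, so that the target was near the detection limit in the control and a decrease was not detectable at this depth. The background-adjusted difference over the 5 libraries was -0.85 on the log2(FPKM + 1) scale, with an exact two-sided permutation p = 0.333. Only 6 arrangements of the labels within background exist, so p cannot go below 0.167. Without siNC replicate 1, the 1 control of background 1, the difference was 0.12, which is that of background 2 alone. The negative sign thus rests on background 1. Strand use in the counting is not stated, and reads of WFDC21P and of genes on the other strand at this place cannot be told apart.

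Of 13138 genes whose mean over the 5 libraries reached 1 FPKM, 0 (0%) passed limma with the background in the model at a Benjamini-Hochberg adjusted p of 0.05. At an unadjusted p under 0.05 there were 2126, of which 1339 were higher and 787 lower with siWFDC21P-1. With limma-voom on recovered reads 1 gene passed, CDKN1A, at an adjusted p of 0.0478. For the difference of the siWFDC21P-1 effect between backgrounds, 0 genes (0%) passed in limma, 784 had an unadjusted p under 0.05, and limma-voom called 0. In that fit the spread of each gene comes from siWFDC21P-1 replicates 1 and 2 alone, so 0 passing does not show equal effects. Genes are therefore described by size. A gene was taken as past 2-fold where log2(FPKM + 1) differed by at least 1 from the control of its background, among the 10828 genes whose mean reached 1 FPKM in each background. Replicates 1 and 2 both went past 2-fold for 169 higher genes (1.56%) and 138 lower genes (1.27%) in background 1. Replicate 3 did so for 214 higher (1.98%) and 204 lower genes (1.88%) in background 2.

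In both backgrounds, 56 genes were higher past 2-fold (0.517%) and 33 were lower (0.305%). With the libraries shifted to a common median, the counts were 48 higher and 41 lower, so this split depends on the library medians. The 56 make up 33.1% of the higher genes of background 1 and 26.2% of those of background 2. The 33 make up 23.9% and 16.2% of the lower genes. Of the 169 higher genes of background 1, 145 were also above the control in replicate 3, and of the 138 lower genes 118 were also below it. Their median differences in replicate 3 were 0.75 and -0.55, against 0.03 over all 10828 genes. Across all 10828 genes the differences of the backgrounds, which share no control, correlated with a Pearson r of 0.494 and a Spearman rho of 0.472. Taken singly, replicate 1 correlated with replicate 3 at a Pearson r of 0.539, and replicate 2 with replicate 3 at 0.361. Genes are not independent replicates, so no p is given. The smallest of the 3 differences ranged from 1.01 to 2.12 among the 56 higher genes and in size from 1.01 to 2.28 among the 33 lower ones, and the nearest genes outside reached 1.00 in each direction. Of the 56, 46 are protein coding (82.1%), and of the 33, 22 (66.7%), against 86.5% of the genes measured in both backgrounds.

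**Figure D1:**
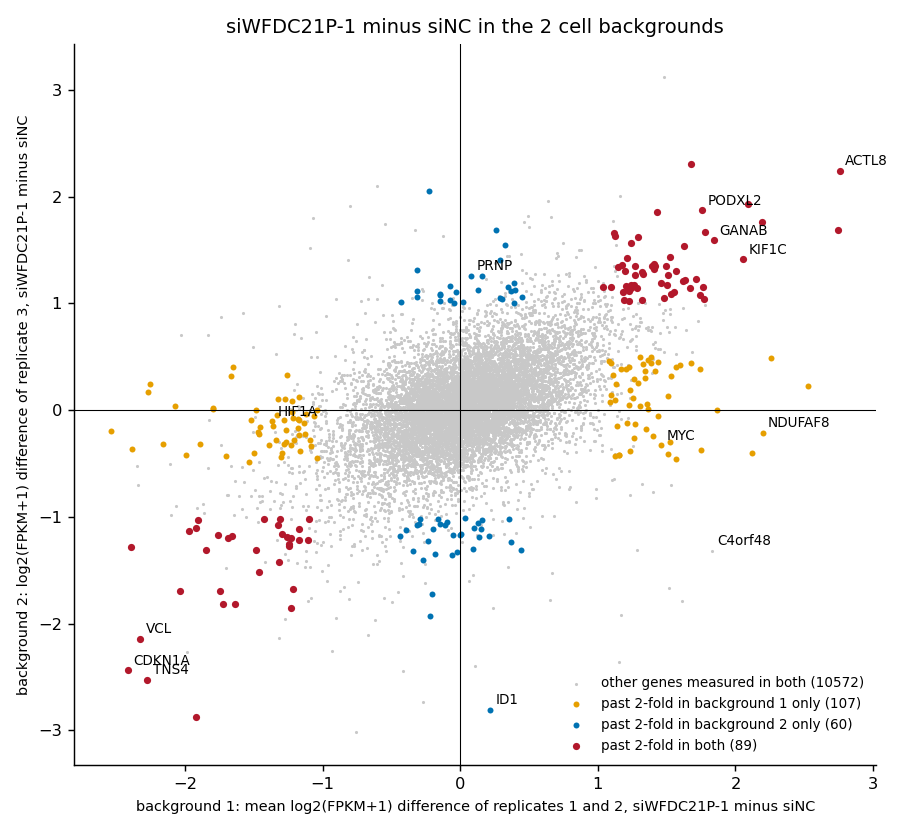
Each point is 1 of 10828 genes, with the log2(FPKM + 1) difference of siWFDC21P-1 from siNC in background 1 (mean of replicates 1 and 2) on the x axis and in background 2 (replicate 3) on the y axis. Red points are the 89 genes past 2-fold the same way in all 3 libraries, with CDKN1A, VCL and TNS4 at the lower left. Orange and blue points are the 107 and 60 genes past 2-fold in 1 background and within 0.5 of the control in the other.

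CDKN1A (chromosome 6, 36676460 to 36687339, plus strand), the gene for p21, which inhibits cyclin-dependent kinases and holds back the cell cycle, had the smallest adjusted p. It had 324 FPKM in siNC replicate 1, with 65.8 and 54.6 in siWFDC21P-1 replicates 1 and 2. In background 2 the control held 50.6 and replicate 3 held 8.55. Each knockdown library was thus at 16.9 to 20.3% of its own control, although the controls themselves differed. The limma difference was -2.42 ± 0.17 (SE, n = 3 against 2), with an adjusted p of 0.0877. CDKN1A was also lower in the siWFDC21P-2 libraries, at 11.7, 7.52 and 10.1 FPKM against 23.8 in siNC replicate 3.

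CDKN1A is a well-known target of p53. Of 25 listed p53 targets measured in both backgrounds, CDKN1A was the 1 past 2-fold in both, 7 were below the control in all 3 libraries and 4 above it. Over all 10828 genes, 22.0% were below the control in all 3 libraries, 29.1% above it and 0.305% past 2-fold lower in both. GDF15, a listed p53 target below the expression limit in background 2, was at 182 FPKM against 55.1 and 18.3 in background 1. The median difference over the list was -0.09 in background 1 and 0.11 in background 2, against 0.03 and 0.03 over all genes. BAX, a p53-induced effector of apoptosis, was at 26.4, 38.6 and 33.9 FPKM in background 1 and at 15.7 and 15.1 in background 2. PLK3, a stress-response kinase, was at 4.90, 3.32 and 2.17 and at 4.50 and 2.04. The value for PLK3 lay below the control in all 3 libraries, that for BAX above it in 2 and below it in 1.

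After CDKN1A, the adhesion gene VCL had the largest difference of the 10 named lower genes whose mean reached 5 FPKM in each background. VCL encodes vinculin, which ties integrin adhesions to actin. Its level was 48.3 FPKM in siNC replicate 1, 6.95 and 11.1 in siWFDC21P-1 replicates 1 and 2, 47.4 in siNC replicate 2 and 9.97 in replicate 3. The 2 controls were nearly level, and the knockdown libraries held 14.4, 23.1 and 21% of them (limma difference -2.25 ± 0.23, adjusted p 0.105). With siWFDC21P-2, VCL was at 49.3, 19.9 and 56.0 FPKM against 53, so that 2 of the 3 libraries lay near that control. TNS4, a tensin at focal adhesions, was at 35.5 FPKM against 4.07 and 10.2 in background 1 and at 8.33 against 0.624 in background 2.

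Of the 29 integrin and focal adhesion genes measured in both backgrounds, VCL and TNS4 were past 2-fold lower in both and 0 were higher. The shares over all genes were 0.305% lower and 0.517% higher. Of the same 29 genes, 11 were on the lower side in all 3 libraries and 4 on the higher side, against 22.0% and 29.1% of all genes, and the medians were -0.32 in background 1 and -0.11 in background 2. ITGA2, the collagen-binding integrin subunit, was at 41.3 FPKM against 7.56 and 7.11 in background 1 and at 5.26 against 2.86 in background 2. The fibronectin-binding subunit ITGA5 was at 82.9 against 23.4 and 10.1, and at 6.19 against 4.01. Both integrin subunits were past 2-fold in background 1, where their control levels were several times those of background 2, and below that size in background 2. Neither difference between the backgrounds passed limma.

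The lower genes included 3 of the immediate early list. PHLDA1, a pleckstrin-homology protein encoded by an early response gene, was at 5.75 FPKM against 0.733 and 1.34 in background 1 and at 34.3 against 9.92 in background 2. IER3, an immediate early gene tied to survival signalling, was at 72.7 against 33.6 and 29.9, and at 126 against 53.6. SPRY4, a feedback inhibitor of receptor tyrosine kinase signalling, was at 9.98 against 3.95 and 3.26, and at 4.39 against 1.36. For each of the 3, the control of the other background stood at a different level, and each knockdown library lay below the control of its own background. Other Sprouty genes, chosen after their values were seen, did not share the direction of SPRY4. SPRY1 was at 1.54 FPKM against 2.38 and 2.54 in background 1 and at 1.75 against 4.72 in background 2, above the control in all 3 libraries. SPRY2 was at 9.11 against 12.4 and 12 and at 13.3 against 11, with no common direction. Among the 24 measured immediate early and AP-1 genes, these 3 were past 2-fold lower in both, against 0.305% of all genes. Of the 24, 0 were past 2-fold higher in both, against 0.517%. On the lower side in all 3 libraries there were 9, on the higher side 3, against 22.0% and 29.1% of all genes, and the medians were -0.33 and -0.03. FOS, a core subunit of AP-1, was at 3.08 FPKM against 2.91 and 2.87 in background 1 and at 1.35 against 1.46 in background 2. JUN, its partner, was at 6.06 against 5.88 and 6.88 and at 13.6 against 16.2, so that both lay within 0.23 of their controls on the log2(FPKM + 1) scale. PLAUR, the urokinase receptor, was at 27.0 FPKM against 5.64 and 8.08, and at 5.07 against 1.45.

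BAK1, a pore-forming effector of mitochondrial apoptosis, was at 22.0 FPKM against 8.67 and 8.91 in background 1 and at 24.3 against 10.0 in background 2 (limma difference -1.22 ± 0.16, adjusted p 0.105). MCL1, an anti-apoptotic relative of BCL2, was at 190 against 76.6 and 83.0 and at 124 against 68.2, which is past 2-fold in background 1 and -0.85 in background 2. BAK1 was the 1 gene past 2-fold lower in both among 26 apoptosis regulators measured, against 0.305% of all genes. Of these 26, 6 were below the control in all 3 libraries and 8 above it, against 22.0% and 29.1% of all genes, with medians of -0.06 and 0.18.

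The remaining lower genes serve varied roles. PTGES, which makes prostaglandin E2, was at 296 FPKM against 71.4 and 78.3 in background 1 and at 54.1 against 24.1 in background 2. OAS3, an antiviral sensor of double-stranded RNA, was at 19.6 against 3.36 and 5.79 and at 7.19 against 2.81. It was the 1 gene past 2-fold in both among 18 measured type I interferon response genes, against 0.305% lower over all genes. The medians of the 18 were -0.53 and -0.19. On the lower side in all 3 libraries were 8 and on the higher side 1, against 22.0% and 29.1% of all genes. METAP2, an aminopeptidase that trims the first methionine of new proteins, was at 45.2 against 17.7 and 19.3 and at 31.2 against 12.5. CPOX, an enzyme of haem synthesis, was at 9.40 against 2.95 and 4.06 and at 17.4 against 4.78. The adaptor-binding protein gene AAGAB was at 29.7 against 13.0 and 13.5 and at 18.9 against 7.56. In each of these 5 genes the knockdown libraries lay below the control of their background, and the limma differences ran from -1.61 to -1.15 with adjusted p of 0.105 to 0.123.

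KRT8, a keratin of simple epithelia, was expressed in both backgrounds, at 232 FPKM against 93.4 and 112 in background 1 and at 293 against 135 in background 2. Its partner KRT18 was at 151 against 80.4 and 83.1 and at 90.6 against 53.8. The sum of all 16 epithelial markers, which counts KRT8 and KRT18 themselves, was 517 against 240 and 302 FPKM in background 1 and 2065 against 1446 in background 2. Of its other members in background 2, KRT19 was at 925 against 474, while EPCAM was at 209 against 228, CDH1 at 42.7 against 59.6, ESRP1 at 34.6 against 44.3 and GRHL2 at 15.8 against 16.7. The lower sum there thus followed the keratins and not these 4 markers. EPCAM, ESRP1 and GRHL2 were at 0 in the control of background 1, where 7 of the 16 reached 1 FPKM. The part of epithelial content in the KRT8 difference was not tested.

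**Figure D2:**
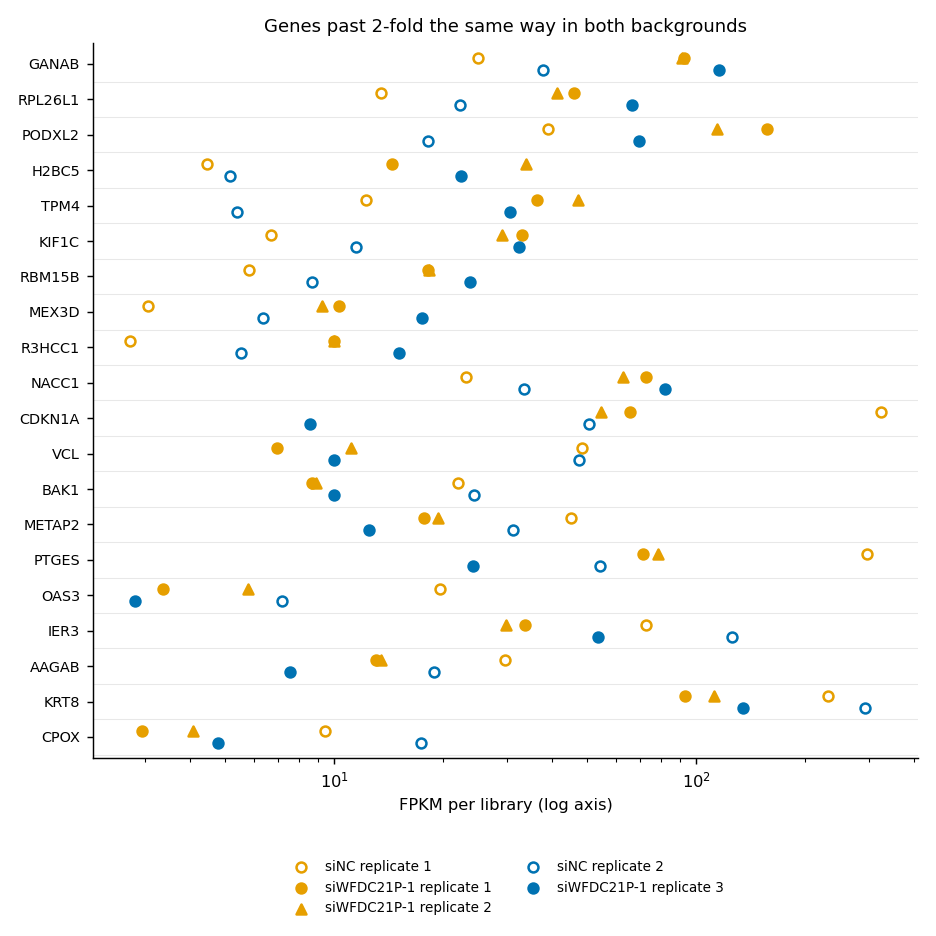
FPKM of the 20 named genes past 2-fold the same way in both backgrounds, 1 row a gene, on a log axis. Open circles are the siNC libraries and filled symbols the siWFDC21P-1 libraries, orange for background 1 and blue for background 2. In each of the 10 upper rows the filled symbols lie to the right of the open symbol of their colour, and in each of the 10 lower rows to its left.

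Among the higher genes whose mean reached 5 FPKM in each background, GANAB went furthest past 2-fold in its least changed library. GANAB encodes the catalytic subunit of glucosidase II, which trims glucose from new glycoproteins in the endoplasmic reticulum. GANAB was at 24.9 FPKM in siNC replicate 1, at 92.6 and 91.1 in siWFDC21P-1 replicates 1 and 2, at 37.8 in siNC replicate 2 and at 116 in replicate 3 (limma difference 1.74 ± 0.16, adjusted p 0.105). With siWFDC21P-2 it was at 192, 201 and 182 against 82.0. PRKCSH, which encodes the regulatory subunit of the same enzyme, was at 55.2 against 66.1 and 69 in background 1 and at 109 against 86.0 in background 2. PRKCSH was chosen for this comparison after its values were seen, and its background 2 difference had the other sign. Of 29 measured genes of endoplasmic reticulum glycoprotein quality control, 2 were past 2-fold higher in both and 0 lower, against 0.517% and 0.305% of all genes. In all 3 libraries 7 were above the control and 9 below it, against 29.1% and 22.0% of all genes. The medians were -0.06 and 0.11.

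Of 27 measured actin cytoskeleton genes, TPM4 was the 1 past 2-fold higher in both and VCL the 1 lower. Over all genes these shares were 0.517% and 0.305%. Above the control in all 3 libraries were 4 of the 27 and below it 9, against 29.1% and 22.0% of all genes, and the medians were -0.09 and -0.19. TPM4, a tropomyosin that lines actin filaments, was at 12.2 FPKM against 36.3 and 47.0 in background 1 and at 5.38 against 30.6 in background 2. The tropomyosin genes TPM1 and TPM3 differed from their controls by -0.23 to -0.07 on the log2(FPKM + 1) scale. KIF1C, a kinesin motor for vesicle transport, was at 6.69 against 33.1 and 29.1 and at 11.5 against 32.3. RAC1, a small GTPase that drives actin assembly at the cell edge, was at 30.9 against 67.7 and 74.7 and at 61.0 against 158. PODXL2, a sialomucin of the CD34 family, was at 38.9 against 157 and 114 and at 18.2 against 69.4. Its relative PODXL was at 74.2 against 66.1 and 27.5 and at 6.34 against 10.8, with no common direction. In PODXL2, KIF1C and TPM4 the 3 knockdown libraries stood at 281 to 568% of their controls.

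RPL26L1, a close copy of the ribosomal protein gene RPL26, was at 13.5 FPKM against 46.1 and 41.3 in background 1 and at 22.2 against 66.4 in background 2. RPL26 itself was at 4.54 against 5.41 and 4.01 and at 5.20 against 3.31. How the counting divides reads between such copies is not given in the sources used here, so both values are uncertain. RPL26L1 was the 1 of 59 measured cytosolic ribosomal protein genes past 2-fold in both, against 0.517% higher over all genes. The medians of the list were 0.04 and -0.24. GTF3A, the transcription factor of the genes for 5S ribosomal RNA, was at 13.1 against 48.7 and 41.8 and at 17.2 against 41.7. TOMM22, a receptor of the outer mitochondrial membrane for imported proteins, was at 14.3 against 57.9 and 43.0 and at 16.2 against 35.4. RBM15B, an RNA-binding protein of the m6A methylation machinery, was at 5.82 against 18.2 and 18.3 and at 8.69 against 23.7. NACC1, a transcriptional co-repressor with a BTB domain, was at 23.1 against 72.9 and 62.9 and at 33.5 against 81.8. MEX3D, which encodes a KH-domain RNA-binding protein, was at 3.05 against 10.3 and 9.24 and at 6.37 against 17.5. The tenth named gene, R3HCC1, was at 2.73 against 10.0 and 10.0 and at 5.52 against 15.1. In each of these genes the differences of the 3 libraries lay above 1, and no adjusted p in limma was below 0.105.

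A far higher ratio belonged to a gene at a low level in background 2. ACTL8, an actin-like gene best known as a cancer-testis antigen, was at 6.35 FPKM against 76.3 and 31.0 in background 1 and at 0.209 against 4.71 in background 2, where the control had 11 reads. It was chosen after its values were seen.

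Core histone genes lay mostly above their controls in both backgrounds. Of 18 measured, 13 were above the control in all 3 libraries and 0 below it, 3 were past 2-fold in both, and the medians were 0.54 in background 1 and 0.85 in background 2. Over all genes, 29.1% were above the control in all 3 libraries, 22.0% below it and 0.517% past 2-fold higher in both. H2BC5, a gene for histone H2B, was at 4.44 FPKM against 14.4 and 33.8 in background 1 and at 5.15 against 22.4 in background 2. H2BC11, another H2B gene, was at 2.81 against 9.83 and 8.23 and at 2.27 against 7.34. H2AC6, a gene for histone H2A, was at 10.8 against 23.6 and 34.4 and at 13.7 against 35.0. The linker histone genes H1-2 and H1-4 differed in sign between replicates 1 and 2, and H2AC20 stayed within 0.06 of its control. Histone genes of 1 class are near-identical copies, so the division of reads among them is uncertain.

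The 150 bases before the start of these 3 histone genes are shown because the genes sit in the histone cluster of chromosome 6 and were all past 2-fold higher. They come from the RefSeq promoter table (GRCh38.p14) and are written 5′ to 3′ on the strand of the gene, at chr6:26157971-26158120 (plus) for H2BC5, chr6:27132796-27132945 (minus) for H2BC11 and chr6:26124022-26124171 (plus) for H2AC6. Capitals mark the CCAAT box (CCAAT), the octamer (ATTTGCAT) and the TATA box (TATAAA), each on either strand.
H2BC5: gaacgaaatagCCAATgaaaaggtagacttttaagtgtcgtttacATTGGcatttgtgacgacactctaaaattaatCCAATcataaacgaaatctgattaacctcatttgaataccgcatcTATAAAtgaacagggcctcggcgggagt
H2BC11: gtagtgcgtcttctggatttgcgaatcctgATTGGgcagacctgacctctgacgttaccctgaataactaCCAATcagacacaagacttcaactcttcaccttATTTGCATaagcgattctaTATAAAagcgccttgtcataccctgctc
H2AC6: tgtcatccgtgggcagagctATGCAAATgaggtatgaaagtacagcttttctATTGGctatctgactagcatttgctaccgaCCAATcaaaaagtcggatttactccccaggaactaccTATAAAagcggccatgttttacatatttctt
Each of the 3 windows holds CCAAT and TATAAA, no marked motif overlaps another there, and the octamer is in H2BC11 and H2AC6. Over the 250 bases before the start of 8067 measured genes found in the table, CCAAT was in 36.3%, the octamer in 1.24% and TATAAA in 4.82%. Among the 42 genes past 2-fold higher in both that were found, the shares were 33.3%, 7.14% and 7.14%. A match describes letters and is not evidence of binding.

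For the lower genes the AP-1 motif (TGANTCA, either strand) was searched in the same way, because immediate early genes were among them. It was in 2 of 18 lower genes found (11.1%), in 2 of 42 higher genes (4.76%) and in 3.43% of the 8067. The 2 lower genes were PLAUR and SNX10, and none of the immediate early genes PHLDA1, IER3 and SPRY4 was among the matches. The windows below, 100 bases each, show the lower gene PLAUR (chr19:43670300-43670399, minus) and the higher gene ME1 (chr6:83431152-83431251, minus), which both hold it, with the motif in capitals.
PLAUR: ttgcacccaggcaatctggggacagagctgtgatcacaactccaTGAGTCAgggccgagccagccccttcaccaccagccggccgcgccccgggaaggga
ME1: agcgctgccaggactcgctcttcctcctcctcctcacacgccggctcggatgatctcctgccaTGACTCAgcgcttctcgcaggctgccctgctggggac
ME1 encodes the cytosolic malic enzyme, which makes NADPH, and was at 4.85 FPKM against 12.4 and 13.1 in background 1 and at 7.67 against 16.6 in background 2. The same letters thus stand before a gene of each direction.

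Genes of mitosis were mostly on the higher side. Of 39 measured G2/M genes, 29 were above the control in all 3 libraries, 0 were below it in all 3, and 17 were higher at an unadjusted p under 0.05 in limma. Over all genes the shares above and below were 29.1% and 22.0%, and 1206 of 10828 were higher at that p. The median difference was 0.63 in background 1 and 0.29 in background 2. CENPA, the histone H3 variant that marks centromeres, was the 1 member past 2-fold in both, at 4.03 FPKM against 20.3 and 12.6 in background 1 and at 21.4 against 49.0 in background 2. Over all genes 0.517% were past 2-fold higher in both. HMMR, a spindle assembly protein, was at 5.09 against 13.9 and 11.5 and at 18.8 against 31.4. MYBL2, a transcription factor of the cell cycle, was at 55.1 against 88.4 and 81.7 and at 94.8 against 186. AURKA, a spindle kinase, was at 39.4 against 55.2 and 25.4 and at 68.4 against 75, without a common direction. In all 39 the control level was higher in background 2 than in background 1. The DNA replication and G1/S list, with 44 measured genes, had medians of -0.03 and 0.08, with 11 members above and 14 below the control in all 3 libraries.

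**Figure D3:**
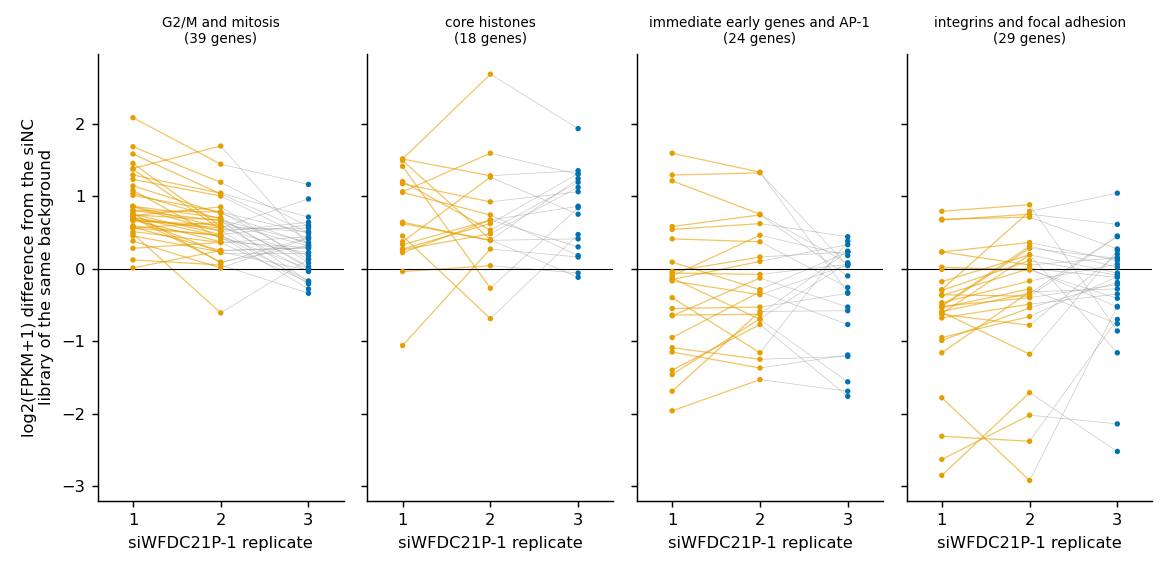
Log2(FPKM + 1) difference from the siNC library of the same background for every measured member of 4 gene lists (y axis) in siWFDC21P-1 replicates 1, 2 and 3 (x axis), with orange points for background 1, blue points for background 2 and lines joining the values of 1 gene. Of the 39 G2/M genes 29, and of the 18 core histone genes 13, lie above 0 in all 3 replicates. In the immediate early and adhesion lists most members lie near 0 and 3 and 2 members lie below -1 throughout.

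In background 1 only, 54 genes were past 2-fold higher (0.499%) and 53 lower (0.489%), meaning that replicates 1 and 2 were past 2-fold and replicate 3 was within 0.5 of its control. In background 2 only, 27 were higher (0.249%) and 33 lower (0.305%). After the libraries were shifted to a common median, background 1 only held 47 higher and 60 lower genes, and background 2 only 19 higher and 38 lower. The difference between the backgrounds passed limma for none of these genes, so they are described by size and not shown to differ.

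NDUFAF8, an assembly factor of respiratory complex I, had 7.33 FPKM in siNC replicate 1, with 34.9 and 39.6 in siWFDC21P-1 replicates 1 and 2, and at 31.3 and 26.9 in siNC replicate 2 and siWFDC21P-1 replicate 3. The difference between the backgrounds was -2.41 ± 0.25, with an adjusted p of 0.762 in limma. RAB5IF was at 2.12 against 11.8 and 13.5 in background 1, and at 18.7 against 13.9 in background 2. CITED4, a co-activator that binds CBP and p300, was at 8.63 against 42.9 and 27.1, and at 92.7 against 92.7. MACROD1, an ADP-ribose hydrolase, was at 5.76 against 23.7 and 17.9 and at 28.4 against 39.0, and TMEM160, a transmembrane protein gene, at 14.4 against 41.6 and 48.4 and at 43.4 against 31.4. In all 5 the control of background 1 was below both libraries of background 2. The proto-oncogene MYC, a member of the immediate early list, was at 73.4 against 224 and 186 and at 71.1 against 56.3, so its controls were nearly level.

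The lower genes of background 1 only included regulators of oxygen response, lipids and polyamines. HIF1A, the oxygen-regulated subunit of the hypoxia factor, was at 74.3 FPKM against 27.9 and 28.3 in background 1, and at 26.8 against 24.9 in background 2. FNDC3B, a fibronectin-domain membrane protein, was at 29 against 9.92 and 5.81, and at 6.98 against 7.10. SMPD1, the acid sphingomyelinase of lysosomes, was at 31.1 against 12.4 and 8.32, and at 5.68 against 5.28. For HIF1A and FNDC3B, the knockdown libraries of background 1 came within 0.5 (log2) of the level of background 2, while SMPD1 stayed above it in both. SAT1, which acetylates polyamines, was at 43.0 against 13.5 and 15.6, and at 177 against 134. IGSF3, an immunoglobulin-domain membrane protein, was at 23.4 against 7.83 and 3.90, and at 18.1 against 14.3.

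In background 2 only, the largest difference was that of ID1, an inhibitor of basic helix-loop-helix factors and a target of BMP signalling. ID1 had 18.5 FPKM in siNC replicate 2 and 1.79 in siWFDC21P-1 replicate 3, with 181 in siNC replicate 1 and 198 and 226 in replicates 1 and 2. The difference between the backgrounds was -3.02 ± 0.25, with an unadjusted p of 0.00424 and an adjusted p of 0.754 in limma. ATP1B1, the beta subunit of the sodium pump, was at 221 against 66.2 in background 2, and at 102 against 81.8 and 96.0 in background 1. ZYX, which encodes the adhesion protein zyxin, was at 21.1 against 8.88, and at 47.8 against 42.0 and 54.6. CAV2, a caveolar coat protein, was at 39.9 against 17.9, and at 9.15 against 9.84 and 10.6, while its partner CAV1 was at 82.3 against 44.9 and at 17.2 against 30.5 and 32.5. PHLDA2, an imprinted pleckstrin-homology gene, was at 138 against 60.5, and at 56.4 against 56.4 and 75.4. For ID1 and ZYX the control of background 1 was the higher one, and for ATP1B1, CAV2 and PHLDA2 that of background 2.

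The 27 higher genes of background 2 only had differences of 1.01 to 2.05, and the 33 lower ones of -2.81 to -1.01. PRNP, the prion protein gene, was at 27.5 FPKM against 67.1 in background 2, and at 37.9 against 38.4 and 41.7 in background 1. PTPRJ, a receptor tyrosine phosphatase, was at 3.92 against 9.24, and at 21.4 against 19.3 and 14.9. CLIP1, a protein of growing microtubule ends, was at 3.52 against 8.21, and at 6.45 against 6.36 and 5.81. ITPKB, an inositol trisphosphate kinase, was at 4.31 against 9.91, and at 4.23 against 4.66 and 6.34. VPS26C, a subunit of the retriever sorting complex, was at 5.97 against 13.4, and at 6.06 against 8.17 and 7.08. For VPS26C and ITPKB the 2 controls were nearly level. In background 2 these values rest on 1 library a side.

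**Figure D4:**
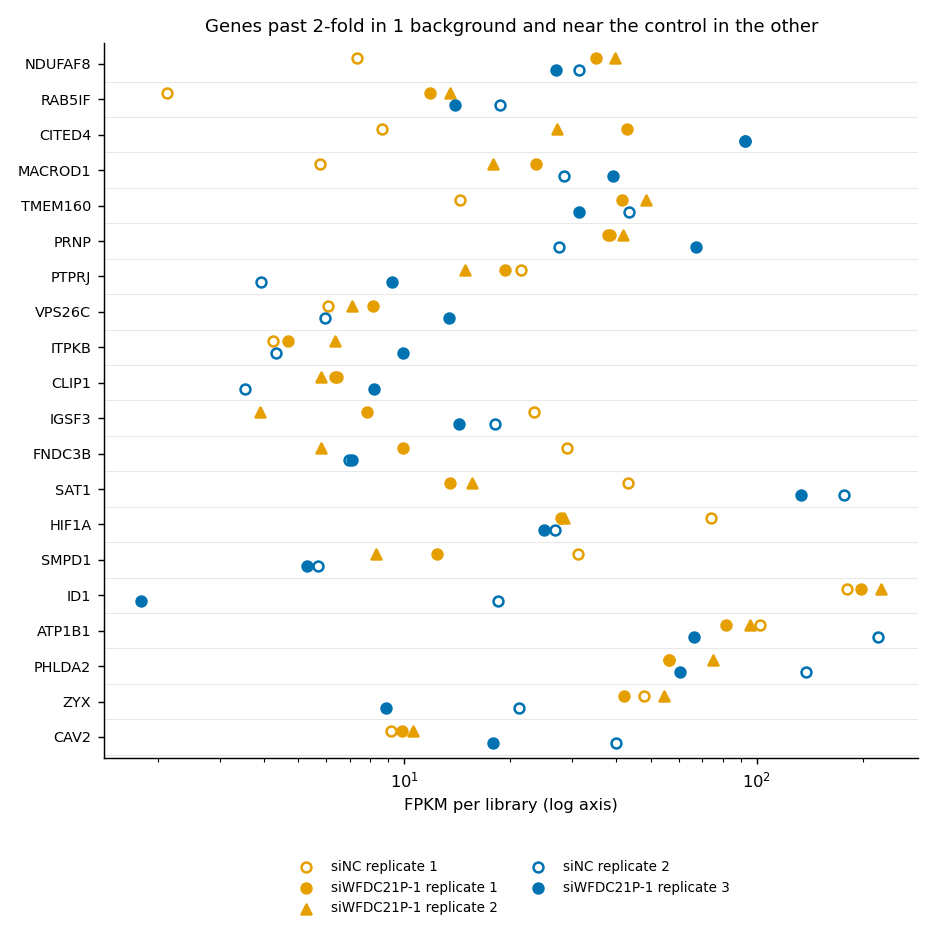
FPKM of the 20 named genes past 2-fold in 1 background and within 0.5 (log2) of the control in the other, 1 row a gene, on a log axis, with open circles for siNC, filled symbols for siWFDC21P-1, orange for background 1 and blue for background 2. In the first 5 rows, from NDUFAF8 to TMEM160, the open orange circle stands apart to the left of the 4 other symbols. In the row of ID1 the blue symbols stand at 18.5 and 1.79 and the orange ones at 181 to 226.

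A further 1454 genes reached a mean of 1 FPKM in background 1 alone and 2189 in background 2 alone. In the other background they lay under that mean, where the log2(FPKM + 1) scale understates a difference. In background 1 alone, 36 (2.48%) were past 2-fold higher and 65 (4.47%) lower. The genes named here were chosen after their values were seen. GDF15, a stress-induced cytokine, was at 182 FPKM against 55.1 and 18.3. ARNT2, a partner of basic helix-loop-helix PAS factors, was at 19.5 against 0.935 and 4.12. IFIT2, an interferon-induced antiviral protein, was at 36.3 against 7.32 and 13.0. PCSK1, a prohormone convertase, was at 4.91 against 14.7 and 22.2, and NPR3, the natriuretic peptide clearance receptor, at 5.93 against 26.4 and 15.0. All 5 were at most 1.14 FPKM in background 2, where the reads of GDF15 were 24 against 11 and those of IFIT2 were 132 against 81, below the control as in background 1.

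In background 2 alone, 125 genes (5.71%) were past 2-fold higher and 97 (4.43%) lower in the single knockdown library. CRYAB, a small heat shock protein, was at 2.60 FPKM against 19. It was above the control in background 1 too, with 6 reads against 71 and 48, or 1197% (95% interval 524 to 3372) and 789% (337 to 2256) of it, by exact intervals that cover counting error only. ELF5, a transcription factor of luminal mammary cells, was at 3.52 against 16.6, and the mucin gene MUC15 was at 6.67 against 31.9. ID4, a relative of ID1, was at 4.66 against 20.9, the direction opposite to ID1. RARRES1, a retinoid-responsive membrane protein, was at 327 against 71.0. CALML5, a calmodulin-like protein of keratinocytes, was at 76.2 against 16.4, and KCTD12, an auxiliary subunit of GABA-B receptors, at 141 against 32.2. All of these were at most 0.809 FPKM in background 1.

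The second siRNA was read against its own control, siNC replicate 3, which these comparisons do not share. Those 4 libraries make up a cell background of their own, with VIM at 162 to 310 FPKM, CDH2 at 14.7 to 18.1, ZEB1 at 19.4 to 33.1 and KRT18 at 1.79 to 3.07, so siRNA and cell background cannot be told apart in any comparison of the 2 siRNAs. Of the 56 higher genes, 52 were measured there, 41 were above that control in all 3 siWFDC21P-2 libraries and 0 below it in all 3, against 27.8% of all genes above and 24.9% below. Past 2-fold in all 3 there was 1, GANAB, against 0.101% of 9887 genes. Of the 33 lower genes, 25 were measured, 12 were below in all 3 and 1 above, and 3 were past 2-fold against 0.172% of 9887 genes, OAS3, KLHDC7B and a gene listed by its identifier alone. The difference between the siRNA effects, each in its own cell backgrounds, passed limma for 0 of 13014 genes (0%).

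**Figure D5:**
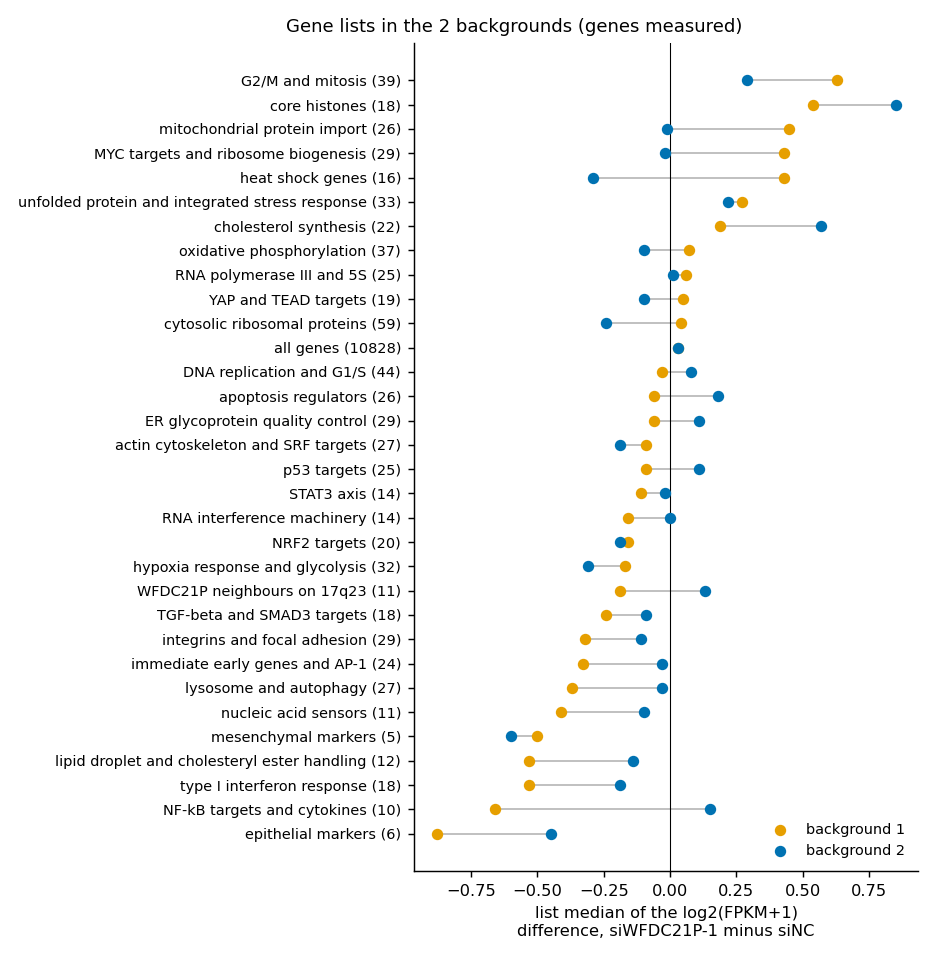
Median log2(FPKM + 1) difference of siWFDC21P-1 from siNC over each gene list with at least 5 measured members (x axis), orange for background 1 (mean of replicates 1 and 2) and blue for background 2 (replicate 3), with the number of genes measured after each name. G2/M genes (0.63 and 0.29) and core histones (0.54 and 0.85) lie to the right in both backgrounds, all genes at 0.03 in each (points overlaid), and the heat shock genes at 0.43 and -0.29.

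Past 2-fold in opposite directions there were 2 genes (0.0185%), C4orf48 and a small nucleolar RNA gene with at most 6 reads.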

How the data were processed

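The authors deposited FPKM per Ensembl gene, 1 table a library. HISAT2 2.1.0, Bowtie2 2.2.3, HTSeq 0.6.0 and hg38 are named per the submitters' processing notes, with no role for each aligner. Strand use is not given in the sources used here. Reads were recovered from the steps of low FPKM values (95.6 to 96.0% whole to within 0.02 reads), for 32678 of 34377 genes. Symbols for 34122 genes and positions came from GENCODE 29 and the reference tables.

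Log2(FPKM + 1) of genes whose mean reached 1 FPKM was fitted in limma 3.58.1 (R 4.3.3), with background and siRNA as terms for the common difference and their interaction for the difference between backgrounds. The first fit left 2 residual degrees of freedom a gene and the interaction fit left 1, from siWFDC21P-1 replicates 1 and 2. In the interaction fit the other libraries were assumed to vary like these. Variances followed an intensity trend, and p-values were adjusted by Benjamini-Hochberg at 0.05. WFDC21P had a mean under 1 FPKM, so it was compared by least squares and exact permutation only. Size classes used a log2 difference of 1, and 0.5 for near the control. The model was tested on simulated data. Alternatives are given with their effects in the closing section.

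The backgrounds, members and 34 gene lists were chosen with earlier results of these data known. Named genes were WFDC21P, up to 10 higher and 10 lower protein-coding genes past 2-fold in both backgrounds ranked by the smallest of their 3 differences and with a mean of at least 5 FPKM in each, 5 a direction for each background alone, the genes of opposite direction, and up to 3 members of a list described. Further names were chosen after their values were seen. Of the 89 genes past 2-fold in both, 60 matched the promoter table by symbol, with the first start listed. Sequences of the siRNAs were not used here, and a few genes are not reported here.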

Additional observations from a re-analysis of the deposited data

Results flagged for a closer look

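C4orf48 stood out because both libraries of background 1 moved one way and the library of background 2 the other. It had 2.98 FPKM in siNC replicate 1, with 8.77 and 19.3 in siWFDC21P-1 replicates 1 and 2, from 47, 137 and 310 reads. In background 2 it was at 27.6 in siNC replicate 2 and at 10.5 in siWFDC21P-1 replicate 3, from 421 and 159 reads. The log2(FPKM + 1) differences were 1.30 and 2.36 in background 1 and -1.32 in background 2. The difference between the backgrounds, -3.14 ± 0.96, had an unadjusted p of 0.0694 and an adjusted p of 0.861 in limma, so it did not pass. Like NDUFAF8 and CITED4, this gene had its lowest level in the control of background 1.

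ENSG00000201151, a small nucleolar RNA gene on chromosome 20, was the other gene with opposite directions. It had 0 reads in siNC replicate 1, 6 and 3 in siWFDC21P-1 replicates 1 and 2, 5 in siNC replicate 2 and 0 in siWFDC21P-1 replicate 3. The differences were 1.96 and 1.27 in background 1 and -1.79 in background 2, and the difference between the backgrounds had an adjusted p of 0.808 in limma. With so few reads no difference was detectable at this depth.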

How the results depend on the processing

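With limma, 0 genes passed for both backgrounds, and 1 passed with a filter at a mean of 5 FPKM (CDKN1A), 1 with limma-voom (CDKN1A) and 3 with all 9 libraries (CDKN1A, GANAB and RPL26L1). Leaving out 1 library gave 0 to 210, the 210 without siWFDC21P-1 replicate 2 (96 higher, 114 lower). These 210 hold 86 of the 89 genes past 2-fold in both and all 20 named ones. Those genes were chosen for passing 2-fold in replicates 1, 2 and 3, and this fit uses replicates 1 and 3, so the overlap is no separate support. Of the 210, 185 lay on the same side in replicate 2, which shares its control with replicate 1, and 97 were past 2-fold the same way there. For the difference between backgrounds, 5186 genes passed with no filter, of which 4622 had equal values in replicates 1 and 2, and 6 passed with the filter at 5 FPKM. Those 6 include ID4, MUC15, SLITRK6 and PALM3. All 6 were at most 0.081 FPKM in the libraries of background 1, so the spread of replicates 1 and 2 is that of values near 0. For genes this low in background 1, the fit cannot decide whether the effect differs between backgrounds. Leaving out libraries was not run for the difference between backgrounds, since no contrast or no residual degree of freedom remains. The cause of these changes was otherwise not tested.

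Genes past 2-fold in both backgrounds numbered 89, against 185 with a pseudocount of 0.1, 55 with a filter at 5 FPKM, and 116 to 183 leaving out replicate 1 or 2. Taken alone, the libraries of background 1 gave 307 and those of background 2 gave 418, 2 alternatives chosen after seeing the data. For background 1 only, the 107 became 189 with the pseudocount, 244 with no filter, 60 with the filter at 5 FPKM and 297 to 331 leaving out a library. For background 2 only, the 60 became 93, 317, 21 and 106 to 163. For opposite directions, the 2 became 10, 7, 1 and 9 to 9.

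WFDC21P was -0.85 on the log2(FPKM + 1) scale and ran from -1.57 to 0.12 leaving out 1 library, 0.12 without siNC replicate 1. Same-numbered deviations correlated at 0.831 for number 1 and at -0.822 for number 2. siNC replicate 2 and siWFDC21P-1 replicate 2 are of different backgrounds. The values thus follow the backgrounds and cannot show whether numbers pair samples. With a replicate block in place of the background 0 genes passed and WFDC21P was at -0.65. Of 140 values of the named genes under these alternatives, 120 kept direction and side of the threshold, 20 passed it, all without replicate 2, and 0 reversed. These genes were chosen for passing 2-fold the same way in every knockdown library. Leaving out 1 library could therefore not reverse them, and the 0 is no separate support. In background 2 depth limits WFDC21P, at 4 and 7 reads.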

Other observations

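Of 22 measured cholesterol synthesis genes, 10 were above the control in all 3 libraries, 0 were below it in all 3 and 0 were past 2-fold in both, against 29.1% above and 22.0% below over all genes. The medians were 0.51 in replicate 1, -0.06 in replicate 2 and 0.57 in replicate 3, so the libraries of background 1 differed from each other. PMVK, an enzyme of the mevalonate pathway, was at 9.38 FPKM against 24.0 and 19.4 in background 1 and at 14.3 against 23.9 in background 2. HMGCS1, which makes HMG-CoA, was at 12.8 against 20.9 and 14.7 and at 11.7 against 24.1.

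Of 32 measured hypoxia and glycolysis genes, 17 were below the control in all 3 libraries and 5 above it, against 22.0% and 29.1% of all genes, with medians of -0.17 and -0.31. LDHA, which makes lactate, was at 335 FPKM against 225 and 208 and at 223 against 135. ANGPTL4, a secreted inhibitor of lipoprotein lipase, was at 8.17 against 0.655 and 1.89 and at 4.73 against 2.06. PFKL, a phosphofructokinase subunit, was on the other side, at 12 against 25.9 and 27.5 and at 16.4 against 32.4. No member passed limma.

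Heat shock and mitochondrial import genes had unlike medians in the backgrounds, and no test of that difference was made for the lists. The 16 heat shock genes had medians of 0.43 and -0.29. HSPD1, the mitochondrial chaperonin, was at 102 FPKM against 348 and 275 in background 1 and at 132 against 177 in background 2. HSPB1, a small heat shock protein, was at 163 against 223 and 300 and at 679 against 235, so the knockdown library of background 2 lay below its control. The 26 import genes had medians of 0.45 and -0.01, with 11 above the control in all 3 libraries and 0 below, against 29.1% and 22.0% of all genes. TIMM8B, a chaperone of the space between the mitochondrial membranes, was at 26.8 against 50.0 and 52.7 and at 57.7 against 91.0.

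Some genes of both directions are small or non-coding. EXOC3-AS1, an antisense gene, was at 1.05 FPKM against 7.55 and 4.76 and at 0.956 against 5.22. LINC00641, a non-coding RNA, was at 3.18 against 0.744 and 0.661 and at 9.33 against 3.64. Without a stated strand, reads of an antisense gene and its partner cannot be told apart.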
